A study of Danio rerio with 23 samples.

Results

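Cartilage matrix and regulator genes were followed across 4 genotypes of zebrafish larvae. The group held 11 genes of the 22856 rows in the count table: the link protein gene hapln1 (ENSDARG00000068516), the aggrecan genes acana and acanb, the matrilin genes matn1, matn4 and 2 copies of matn3 (ENSDARG00000069245 and ENSDARG00000069265), the chondromodulin gene cnmd, and the transcription factor genes sox5, sox6 and sox9 (ENSDARG00000003293). A further name, comp, matched no row by symbol and was not analysed here. The names were selected on CPM (read counts scaled to the size of the library) of these libraries across the genotypes. Levels, fold changes and calls of the 11 genes are therefore given as a description, with no p-value, and no test rests on them.

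The libraries came from whole Tg(fli1:EGFP) larvae, which carry EGFP under the endothelial fli1 promoter, at 96 h post fertilization, with no treatment. The wildtype group (WT) had 6 libraries, the AKR1A1AKO group 5, the GLO1KO group 6 and the DKO group 6, each from a clutch of 20 pooled larvae. GLO1KO and AKR1A1AKO are CRISPR/Cas9 knockout lines lacking glyoxalase 1 and aldo-keto reductase 1A1A, enzymes that detoxify methylglyoxal and acrolein, respectively. DKO larvae lack both enzymes and descend from intercrossed double heterozygotes of the 2 lines. All groups share the transgene, and the RNA was not taken from cartilage alone.

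Cartilage is a hydrated tissue in which fibrils of type II, IX and XI collagen hold the proteoglycan aggrecan. Aggrecan carries chondroitin sulfate chains, binds hyaluronan and is locked to it by link protein, while matrilins connect collagen fibrils with proteoglycans. Sox9 is the master regulator of chondrocytes, and Sox5 and Sox6 work beside it to switch on the matrix genes. In zebrafish larvae, the pharyngeal arches and the neurocranium are the main cartilages at this stage. Sox5, Sox6 and Sox9 are also made outside cartilage, for example in the nervous system.

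The libraries held between 34316527 and 36804437 counts, and all 11 genes passed the filter on low counts in each of the 6 comparisons. A gene was called when the edgeR quasi-likelihood test gave a Benjamini-Hochberg adjusted p below 0.05 over all genes tested and the fold change was above 1.5. As a check of the labels, glo1 was at 81.9 ± 5.78 CPM in WT (SD, n = 6), 81.3 ± 4.59 for AKR1A1AKO (n = 5), 3.26 ± 0.219 for GLO1KO (n = 6) and 3.55 ± 0.576 for DKO (n = 6). The akr1a1a gene was not analysed here. In bulk RNA, fewer cartilage cells and less RNA per cartilage cell cannot be told apart. All 3 comparisons with WT share the same 6 WT libraries, so they are set side by side and not counted as separate evidence.

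Against WT, the genes called lower were mostly those of the matrix, together with sox9. In DKO larvae, 4 of the 11 genes were called lower (sox9, acana, acanb and matn1), and the median log2 fold change was -0.43, beside -0.006 over all genes tested. Over all genes, 18.0% were called lower and 7.32% higher in DKO. In GLO1KO larvae, 7 genes were called lower (hapln1, sox9, acana, acanb, matn1, matn3 ENSDARG00000069245 and cnmd), with a median of -0.73 beside -0.005, where 17.7% of all genes were called lower and 6.85% higher. In AKR1A1AKO larvae, 5 genes were called lower (hapln1, acana, acanb, matn1 and matn3 ENSDARG00000069265), with a median of -0.47 beside -0.007, where 9.28% of all genes were called lower and 2.26% higher. Acana, acanb and matn1 were called in all 3 comparisons. The share of all genes called in all 3 was not counted, and the comparisons share their WT libraries.

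With edgeR, 0 of the 11 genes were called higher against WT in any knockout. At an unadjusted p below 0.05 the number above WT was 1 in each comparison, and DESeq2 and limma also called 0. Every knockout library lay below every WT library for 4 genes in DKO, 6 in GLO1KO and 5 in AKR1A1AKO. The share of all genes with such separated ranges was 18.4%, 20.1% and 8.87%, respectively. Because CPM of these libraries chose the genes, nothing is read from these counts.

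**Figure D1:**
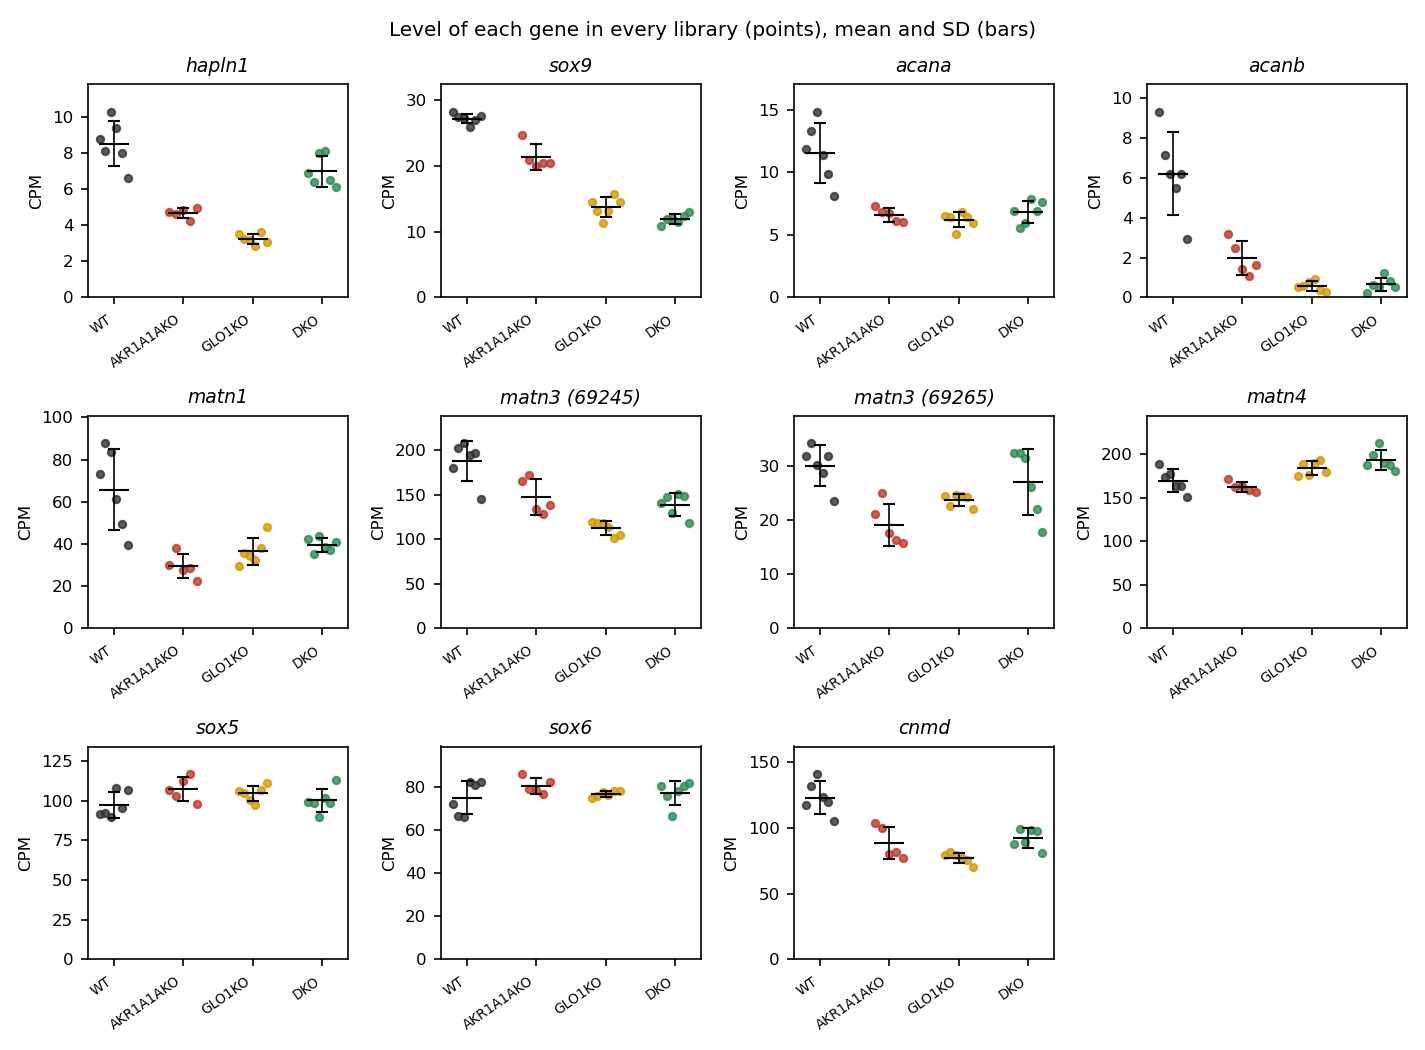
CPM of the 11 genes in each library (points, coloured by genotype) with the mean and SD of each genotype (WT, GLO1KO and DKO n = 6, AKR1A1AKO n = 5); the CPM axis of each panel starts at 0. The hapln1 points of DKO (6.10 to 8.10 CPM) reach into the WT range (6.59 to 10.3 CPM), whereas those of AKR1A1AKO and GLO1KO lie below it.

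Among the genes of the aggrecan complex, hapln1 was lowest in the single knockouts and nearest to WT in DKO. Link protein, its product, clamps aggrecan onto hyaluronan. In WT, hapln1 ran from 6.59 to 10.3 CPM, with a median of 8.45. The AKR1A1AKO libraries were at 4.75, 4.64, 4.86, 4.23 and 4.98 CPM, and the GLO1KO libraries at 2.84 to 3.65 CPM, with a median of 3.19. In DKO, the values were 6.10 to 8.10 CPM, with a median of 6.72. The order of the levels was thus WT, DKO, AKR1A1AKO and GLO1KO, and among these neighbours the ranges overlapped only between WT and DKO. The log2 fold change against WT was -0.86 ± 0.11 in AKR1A1AKO (SE), -1.39 ± 0.11 in GLO1KO and -0.30 ± 0.11 in DKO. DKO exceeded GLO1KO by 1.10 ± 0.10 on the log2 scale and was called, and exceeded AKR1A1AKO by 0.57 ± 0.10, which was under the fold change threshold. That last value crossed the threshold without AKR1A1AKO replicate 5 or DKO replicate 2 (0.594 each), without DKO replicate 5 (0.591) or without DKO replicate 6 (0.608).

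The other copy, hapln1a (ENSDARG00000089769), was not among the 11 genes and had a different order of levels. Its mean was 99.2 ± 17.1 CPM in WT, 68.8 ± 7.37 for AKR1A1AKO, 69.1 ± 5.56 for GLO1KO and 61.9 ± 4.402 for DKO (SD), and DKO had the lowest mean. Hapln1a fell in DKO against WT by 0.69 ± 0.10 on the log2 scale (SE; edgeR, adjusted p = 2.72e-05). It was not called in GLO1KO (-0.52 ± 0.10, adjusted p = 0.000394) or AKR1A1AKO (-0.525 ± 0.12, adjusted p = 0.00506), where the fold stayed under 1.5, and without WT replicate 6 both passed (-0.595 and -0.60). The difference in pattern between the copies was not tested, and reads that match both could be assigned to either.

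The 2 aggrecan genes were lower in every knockout, acanb by far more than acana. Aggrecan is the large proteoglycan that gives cartilage its resistance to compression. Acana was at 8.12 to 14.8 CPM in WT, with a median of 11.6. The AKR1A1AKO libraries were at 7.28, 6.84, 6.73, 6.12 and 6.02 CPM, the GLO1KO libraries at 5.09 to 6.84 (median 6.42) and the DKO libraries at 5.57 to 7.86 (median 6.92). Every knockout library was below every WT library, and the 3 knockout groups overlapped one another. The log2 fold changes against WT were -0.81 ± 0.14, -0.89 ± 0.13 and -0.77 ± 0.13 in AKR1A1AKO, GLO1KO and DKO. Between knockouts the difference was 0.12 (2 SE interval -0.076 to 0.319) for DKO against GLO1KO and 0.038 (-0.164 to 0.241) for DKO against AKR1A1AKO.

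Acanb was read from few counts in the knockouts, 10 to 31 per GLO1KO library and 8 to 40 per DKO library, against 109 to 369 in WT. Its level was 2.91 to 9.29 CPM in WT, with a median of 6.21. AKR1A1AKO libraries were at 3.17, 2.50, 1.44, 1.08 and 1.64 CPM. GLO1KO libraries were at 0.291 to 0.926 CPM (median 0.551) and DKO libraries at 0.243 to 1.21 CPM (median 0.586). GLO1KO and DKO lay below all WT libraries and overlapped each other, while the highest AKR1A1AKO library exceeded the lowest WT library. The log2 fold change against WT was -1.66 ± 0.30 in AKR1A1AKO, -3.41 ± 0.29 in GLO1KO and -3.24 ± 0.31 in DKO. Acanb was also called lower in GLO1KO than in AKR1A1AKO (-1.76 ± 0.31) and lower in DKO than in AKR1A1AKO (-1.58 ± 0.34).

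The matrilin genes did not share 1 pattern. Matrilins are oligomeric adaptors of the matrix, and matn1 and matn3 are typical of cartilage. Matn1 was at 39.5 to 87.7 CPM in WT, with a median of 67.1. The AKR1A1AKO libraries were at 30.2, 38.1, 27.5, 28.6 and 22.5 CPM, the GLO1KO libraries at 29.6 to 48.3 (median 34.99) and the DKO libraries at 35.2 to 43.8 (median 39.8). Only AKR1A1AKO lay wholly below WT, since the lowest WT library, replicate 6, fell within the ranges of the other knockouts. The log2 fold change against WT was -1.16 ± 0.20 in AKR1A1AKO, -0.85 ± 0.17 in GLO1KO and -0.74 ± 0.16 in DKO.

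The copies of matn3 reached their lowest level in different genotypes. For ENSDARG00000069245, the mean was 188 ± 22.7 CPM in WT, 148 ± 20.1 for AKR1A1AKO, 113 ± 7.87 for GLO1KO and 139 ± 12.7 for DKO (SD), with GLO1KO at 102 to 120 CPM below all WT libraries (145 to 208). It was called in GLO1KO (-0.73 ± 0.08), beside -0.34 ± 0.10 in AKR1A1AKO and -0.44 ± 0.08 in DKO, the last of which was called when only library size was used for scaling (-0.62). For ENSDARG00000069265, the mean was 30.1 ± 3.73 CPM in WT, 19.2 ± 3.84 for AKR1A1AKO, 23.8 ± 1.11 for GLO1KO and 27.1 ± 6.12 for DKO. This copy was called in AKR1A1AKO (-0.65 ± 0.12), where its ranges overlapped with WT and the call was lost without AKR1A1AKO replicate 5 (-0.58). Its fold change was -0.34 ± 0.08 in GLO1KO and -0.16 ± 0.14 in DKO (2 SE interval -0.434 to 0.111).

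Matn4, which in mammals is also made outside cartilage, was near the WT level in every knockout. Its mean was 169 ± 13.3 CPM in WT, 162 ± 5.69 for AKR1A1AKO, 184 ± 7.85 for GLO1KO and 193 ± 11.3 for DKO. The log2 fold change against WT was -0.057 ± 0.06, 0.12 ± 0.05 and 0.175 ± 0.06, and the sign in GLO1KO and DKO turned to -0.009 and -0.003 when only library size was used for scaling. All ranges overlapped with WT. GLO1KO and DKO libraries were above every AKR1A1AKO library, by 0.18 ± 0.04 and 0.24 ± 0.05, under the fold change threshold.

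Cnmd encodes chondromodulin, a glycoprotein of avascular cartilage that inhibits vessel growth. It was at 105 to 141 CPM in WT, with a median of 122. AKR1A1AKO libraries were at 103, 99.7, 80.1, 81.4 and 77.1 CPM, GLO1KO libraries at 70.2 to 81.3 (median 78.2) and DKO libraries at 80.7 to 99.2 (median 93.7). All 17 knockout libraries were below the lowest WT library, yet only the GLO1KO difference exceeded the fold change threshold. The log2 fold change was -0.47 ± 0.09 in AKR1A1AKO, -0.67 ± 0.06 in GLO1KO and -0.43 ± 0.07 in DKO, the last of which was called when only library size was used for scaling (-0.605).

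**Figure D2:**
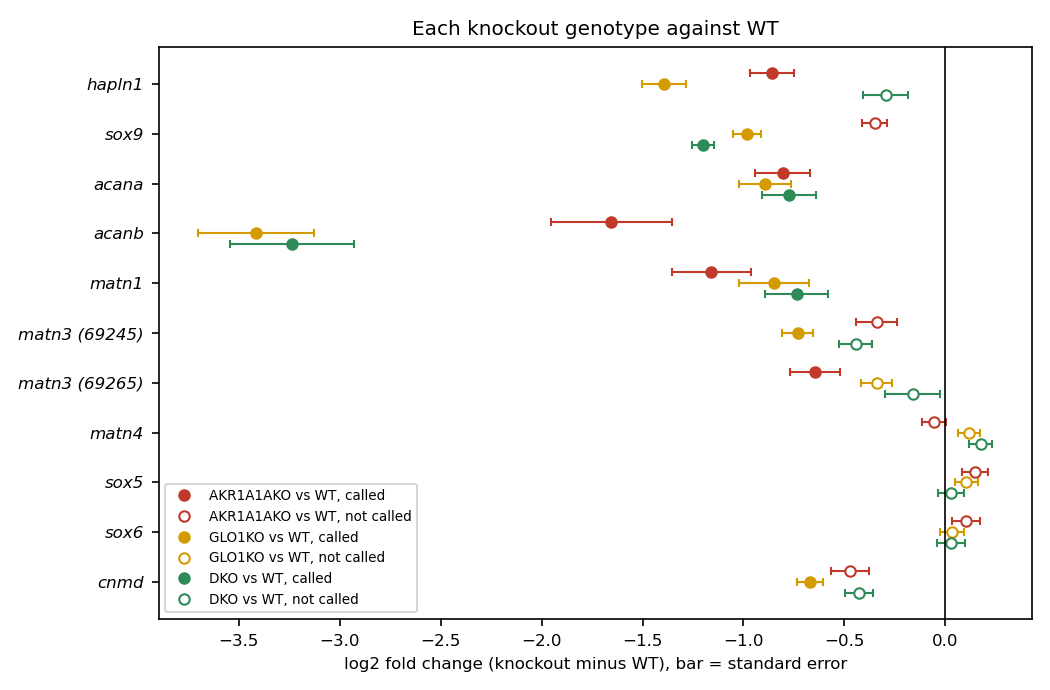
Log2 fold change of each of the 11 genes in AKR1A1AKO, GLO1KO and DKO against WT (points), from the edgeR fits. Lines show the SE on each side, and the vertical line marks 0. Acanb lies farthest to the left (-1.66, -3.41 and -3.24), and sox5, sox6 and matn4 lie close to 0.

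Of the transcription factor genes, sox9 was called lower in the genotypes lacking glyoxalase 1, whereas sox5 and sox6 stayed near WT. Sox9 was the steadiest of the 11 genes among WT libraries, at 25.9 to 28.1 CPM, with a median of 27.3. AKR1A1AKO libraries were at 24.7, 20.9, 19.95, 20.4 and 20.4 CPM. GLO1KO libraries were at 11.4 to 15.65 CPM (median 13.9) and DKO libraries at 10.85 to 12.9 CPM (median 11.9). The order WT, AKR1A1AKO, GLO1KO and DKO had separate ranges except between GLO1KO and DKO. The log2 fold change against WT was -0.35 ± 0.06 in AKR1A1AKO, which was not called, -0.98 ± 0.07 in GLO1KO and -1.20 ± 0.05 in DKO. Sox9 was also called lower than in AKR1A1AKO in DKO (-0.85 ± 0.07) and in GLO1KO (-0.63 ± 0.08), the latter lost without AKR1A1AKO replicate 1 (-0.57) or GLO1KO replicate 3 (-0.58). DKO and GLO1KO differed by -0.22 ± 0.07.

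The other sox9 copy, ENSDARG00000043923, is not one of the 11 genes and was at 35.2 ± 2.29 CPM in WT, 34.9 ± 2.58 for AKR1A1AKO, 37.2 ± 1.20 for GLO1KO and 39.3 ± 8.87 for DKO. Its log2 fold change against WT was -0.011 ± 0.07 in AKR1A1AKO (adjusted p = 0.911), 0.081 ± 0.05 in GLO1KO (adjusted p = 0.175) and 0.15 ± 0.11 in DKO (adjusted p = 0.273). All its ranges overlapped with WT.

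Sox5 and sox6 were at 97.4 ± 8.07 and 74.9 ± 7.73 CPM in WT. Sox5 was at 107.5 ± 7.34 CPM for AKR1A1AKO, 105 ± 4.90 for GLO1KO and 100.2 ± 7.47 for DKO. Sox6 was at 80.3 ± 3.62 CPM in AKR1A1AKO, 76.7 ± 1.33 in GLO1KO and 77.1 ± 5.70 in DKO. The 2 SE interval of the DKO to WT log2 fold change was -0.098 to 0.156 for sox5 and -0.114 to 0.171 for sox6, and both point values turned negative (-0.148 and -0.149) when only library size was used for scaling. For sox5 in AKR1A1AKO against WT, the log2 fold change was 0.146 (2 SE interval 0.017 to 0.275). It was not called, since both its adjusted p and its fold change missed the thresholds. Ranges of both genes overlapped with WT in every knockout.

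Between knockouts, few of the 11 genes were called. DKO against GLO1KO gave 1 gene higher (hapln1) and 0 lower, beside 2.98% higher and 1.26% lower of all genes; 1 gene was lower at an unadjusted p below 0.05, and DESeq2 and limma called 0 lower. DKO against AKR1A1AKO gave 2 lower (sox9 and acanb), beside 8.11% lower and 3.77% higher of all genes. GLO1KO against AKR1A1AKO gave the same 2 genes lower, beside 6.46% lower and 2.64% higher of all genes.

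**Figure D3:**
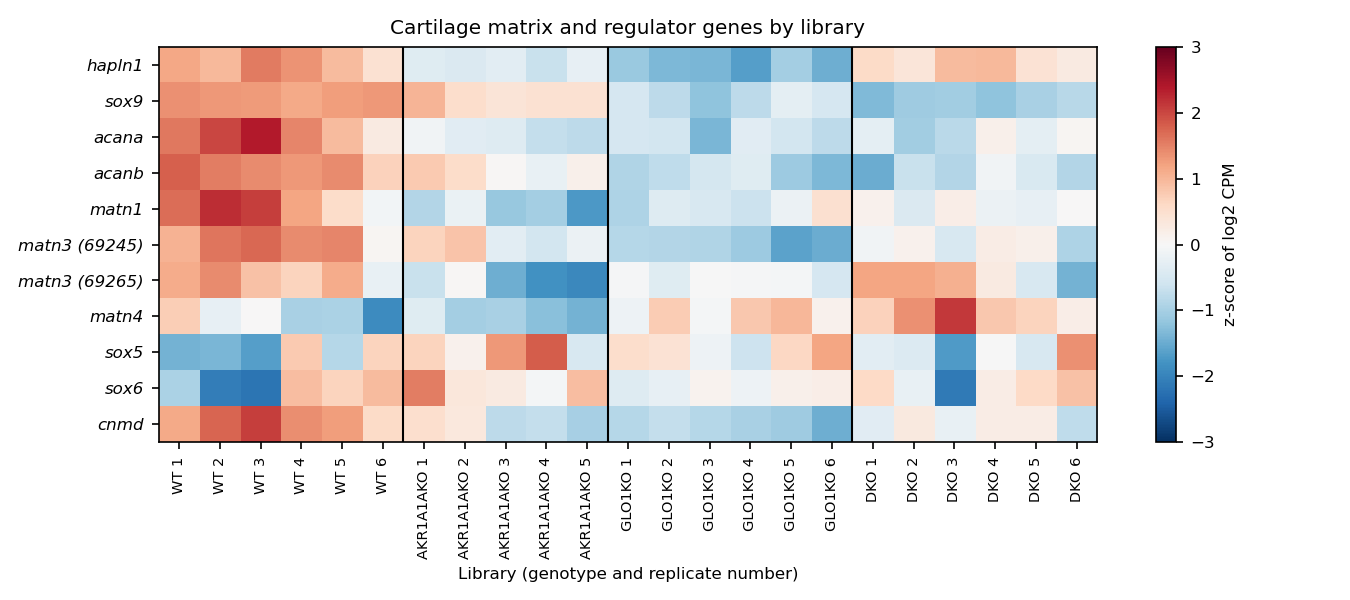
Log2 CPM of the 11 genes in each of the 23 libraries as a z-score over all libraries (colour; red above and blue below the gene's mean), with libraries in columns by genotype and replicate number. The matrix genes other than matn4, together with sox9, are red in most WT columns. The mean z-score is 0.75 in WT, -0.195 for AKR1A1AKO, -0.50 for GLO1KO and -0.086 for DKO.

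The mean z-score of log2 CPM over the 11 genes summarised each library. It was 0.75 ± 0.255 in WT (SD, n = 6; 0.25 to 0.97), -0.195 ± 0.345 in AKR1A1AKO (n = 5; -0.56 to 0.25), -0.50 ± 0.08 in GLO1KO (n = 6; -0.62 to -0.37) and -0.086 ± 0.13 in DKO (n = 6; -0.265 to 0.125). GLO1KO was the tightest group, and its highest library was below the lowest DKO library. WT libraries differed among themselves: the highest was 3.19 times the lowest for acanb, 2.22 times for matn1 and 1.83 times for acana, against 1.09 times for sox9. WT replicate 6 was the lowest WT library for 8 of the 11 genes. In AKR1A1AKO, replicate 1 was the highest for 6 genes and replicate 5 the lowest for 6. Without WT replicate 6, no call of the 11 genes against WT changed.

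**Figure D4:**
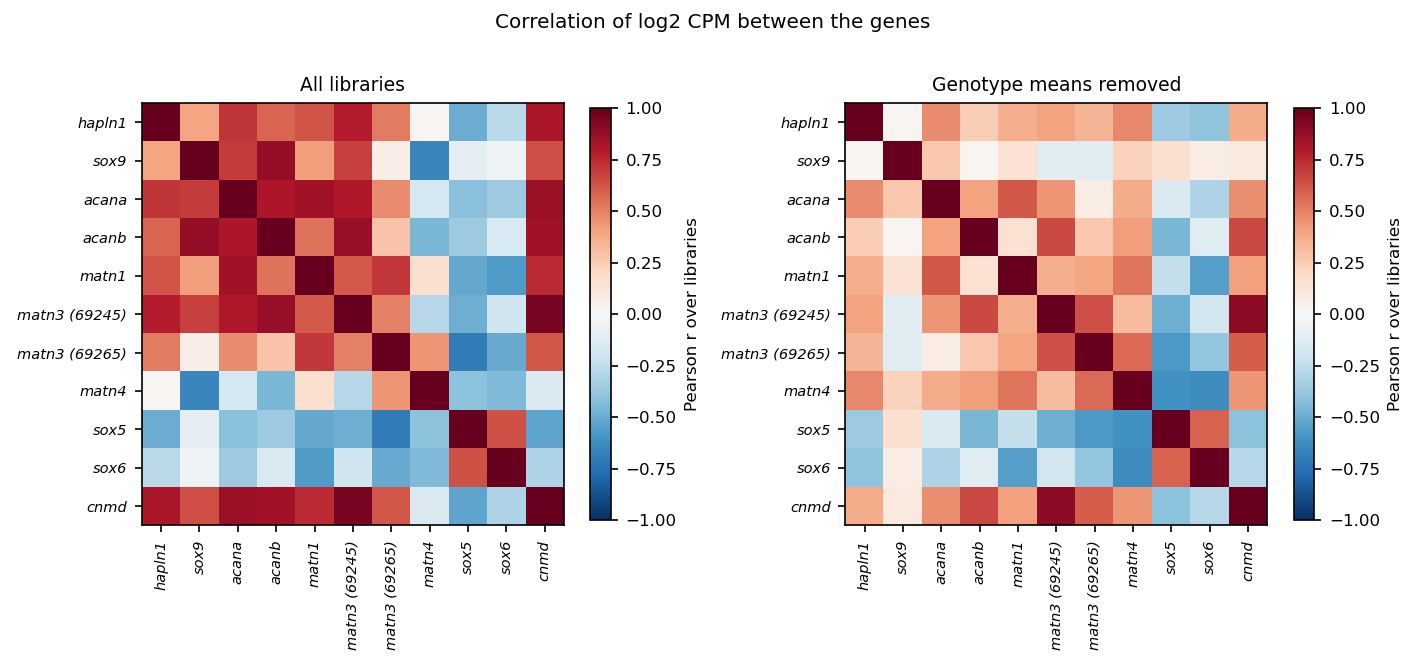
Pearson correlation of log2 CPM between each pair of the 11 genes over 23 libraries (left) and after the mean of each genotype was removed (right); red is positive and blue negative. Matn3 ENSDARG00000069245 and cnmd form the strongest pair in both panels (0.95 and 0.90), whereas sox9 and acanb go from 0.88 on the left to 0.02 on the right.

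Many of the genes moved together across libraries, with differing shares within and between genotypes. The pairs share libraries and genotypes, so the correlations are descriptions. Among the 8 genes other than matn4, sox5 and sox6, a split made after the values were seen, all 28 pairs had r above 0 over the 23 libraries, with a median of 0.69. With genotype means removed, 26 of the 28 pairs stayed above 0, with a median of 0.37. Of the 24 pairs of matn4, sox5 or sox6 with those 8 genes, 3 had r above 0 over the 23 libraries (median -0.34). With genotype means removed, 10 of these 24 were above 0 (median -0.16). Over all 55 pairs, 32 were above 0 (median 0.40), and 37 with genotype means removed (median 0.25). Matn3 ENSDARG00000069245 and cnmd followed each other most closely, with r = 0.95 over all libraries and 0.90 within genotypes. Sox9 and acanb had r = 0.88 over all libraries and 0.02 within genotypes. Sox5 and sox6 had r = 0.63 and 0.59.

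The genes outside the group with profiles most like its mean z-score included 4 cartilage collagen genes. Over the 23 libraries these were col11a1 (r = 0.96), epyc (0.946), col11a2 (0.94), col2a1 (0.94), col8a1a (0.93), col9a2 (0.93), ucma (0.93), cmn (0.925), tgfbi (0.92) and mmp11b (0.92). With genotype means removed, col11a2 (0.84), col9a2 (0.83), col11a1 (0.82) and col2a1 (0.77) were still among the first 10. Not all other cartilage genes followed the mean z-score. Over the 23 libraries, r was -0.695 for fam20b, -0.544 for b3gat3, -0.537 for prg4a and -0.185 for sox9 ENSDARG00000043923. The col2a1 copy ENSDARG00000011407 was at rank 1999 (r = 0.718). The points are the same libraries throughout, and no p is attached.

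Other cartilage genes lay outside the 11 and were tested. Their lists were also chosen with earlier results of these data known, so they are not independent evidence. Of 55 genes in 3 lists, 53 were tested in DKO against WT. Of these, 19 fell, beside 18.0% of all genes, and 1, prg4a (lubricin, a lubricant of joint surfaces), rose, beside 7.32%. Prg4a was read from 16 to 32 counts per WT library and 24 to 56 per DKO library. The other lubricin copy, prg4b, went the other way, from 4.93 ± 2.37 CPM in WT to 1.49 ± 0.367 in DKO (SD), without overlap of ranges. The median log2 fold change of the 53 genes was -0.38, beside -0.006 over all genes. Ranges were wholly below WT for 17 of them, beside 18.4% of all genes. They were wholly above WT for 1, fam20b, at 35.3 ± 2.53 CPM in WT and 44.9 ± 2.68 in DKO (SD). Its log2 fold change was 0.33 ± 0.06 (SE, edgeR adjusted p = 0.000169), under the fold change threshold. The share of all genes wholly above WT was not counted. In GLO1KO, 18 of 52 fell and 1 rose (median -0.46), beside 17.7% and 6.85% of all genes. In AKR1A1AKO, 10 of 53 fell (median -0.35) and 0 rose, beside 9.28% and 2.26%, with 1 above WT at an unadjusted p below 0.05 by edgeR and 0 called by DESeq2 or limma. DKO against GLO1KO gave 3 higher and 0 lower of 52 (3 lower at an unadjusted p below 0.05, and 0 called lower by DESeq2 or limma), beside 2.98% and 1.26% of all genes. Of those 3 calls, 1 was left without DKO replicate 5 or 6 or GLO1KO replicate 2, 5 or 6, and 0 with all libraries in 1 fit. Without GLO1KO replicate 5 the total stayed at 3, since other genes came to be called. DKO against AKR1A1AKO gave 7 lower and 1 higher of 53, beside 8.11% and 3.77%. GLO1KO against AKR1A1AKO gave 7 lower and 0 higher of 52, beside 6.46% and 2.64%, with 4 higher at an unadjusted p below 0.05 by edgeR and 0 called higher by DESeq2 or limma. The count of 7 was 4 without AKR1A1AKO replicate 1 or 3.

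**Figure D5:**
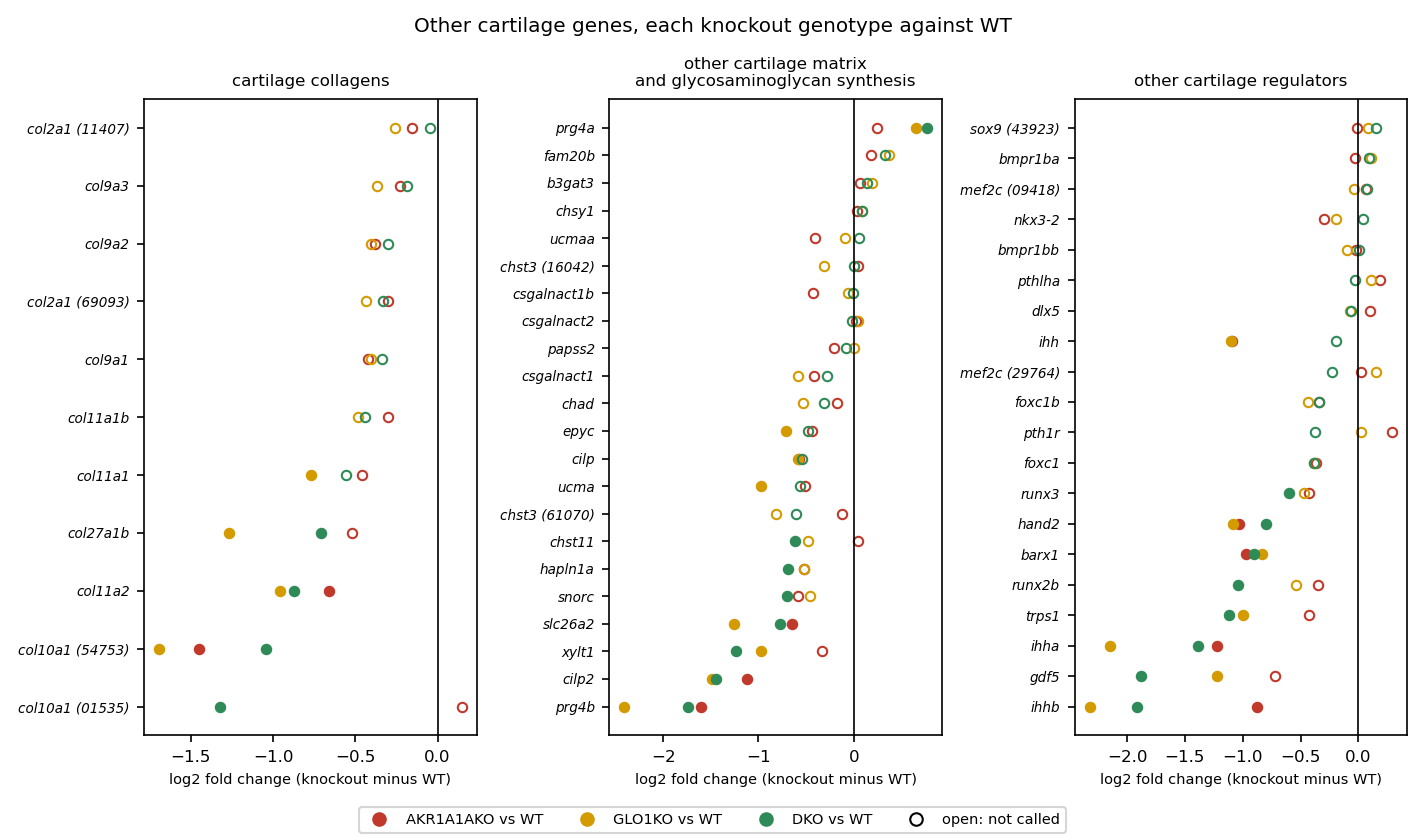
Log2 fold change of the other cartilage genes in AKR1A1AKO, GLO1KO and DKO against WT, in 3 panels by list; filled points were called and open points were not. Of the 53 genes tested in DKO, 19 filled points are left of 0 and 1 (prg4a) is right of it.

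All 11 cartilage collagen genes had a log2 fold change below 0 in DKO against WT, though for 1 copy of col2a1 it was close to 0. Of the 11, 4 fell, beside 18.0% of all genes, and 4 had ranges wholly below WT, beside 18.4%. Col11a2, a chain of the type XI collagen that nucleates thin fibrils, fell from 277 ± 29.7 CPM in WT to 152 ± 7.27 in DKO (log2 fold change -0.88 ± 0.07, adjusted p = 7.47e-08) and was also called in GLO1KO (-0.96 ± 0.07) and AKR1A1AKO (-0.66 ± 0.11). Col11a1 (ENSDARG00000026165) was at 628.5 ± 66.3 CPM in WT and 431 ± 14.7 in DKO (-0.555 ± 0.06, adjusted p = 2.77e-06). Its fold was below the threshold of 1.5, which it passed without WT replicate 6 (-0.60). Col2a1 (ENSDARG00000069093), the main fibril collagen of cartilage, was at 1774 ± 156 CPM in WT and 1420 ± 55.0 in DKO (-0.33 ± 0.055, adjusted p = 0.000108). Col9a2, of the collagen that coats these fibrils, was at 404 ± 42.1 and 330 ± 13.2 CPM (-0.30 ± 0.06, adjusted p = 0.000735). The other col2a1 copy, ENSDARG00000011407, was at 387 ± 31.6 CPM in WT and 377 ± 23.9 in DKO (-0.046 ± 0.06, edgeR adjusted p = 0.512), with overlapping ranges. The other 3 that fell were col27a1b (-0.71 ± 0.20, adjusted p = 0.00675, not called without WT replicate 1 at -0.55) and both copies of col10a1 (-1.05 ± 0.33, adjusted p = 0.0129, and -1.32 ± 0.39, adjusted p = 0.00845), the collagen of hypertrophic cartilage. The DKO ranges of these 3 overlapped with WT. Col10a1 ENSDARG00000054753 was at 16.3 to 86.8 CPM in WT, highest in replicate 1, and at 15.8 to 30.4 CPM in DKO. The abundant col11a1, col2a1 ENSDARG00000069093 and col9a2 had small adjusted p-values with fold changes under the threshold.

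In the list of other matrix proteins and glycosaminoglycan synthesis, 7 of 22 fell and 1 rose in DKO, beside 18.0% and 7.32% of all genes. Xylt1, the xylosyltransferase that starts chondroitin sulfate chains on core proteins, fell from 14.5 ± 0.609 to 6.20 ± 1.01 CPM (-1.24 ± 0.09, adjusted p = 6.98e-08), with no overlap of ranges. It fell in GLO1KO too (-0.97 ± 0.08, adjusted p = 4.3e-07) and was lower in DKO than in AKR1A1AKO (-0.90 ± 0.12, adjusted p = 4.28e-05). Chst11, a chondroitin sulfotransferase, fell from 13.3 ± 0.447 to 8.72 ± 0.941 CPM (-0.62 ± 0.08, adjusted p = 6.24e-06), a call lost without DKO replicate 2 (-0.585) or 5 (-0.58). Epyc, a small leucine-rich proteoglycan, was at 165 ± 15.3 and 119 ± 9.52 CPM (-0.48 ± 0.07, adjusted p = 2.35e-05), under the fold change threshold.

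Of the other regulators, 8 of 20 tested fell in DKO and 0 rose, beside 18.0% and 7.32% of all genes; 0 were above WT at an unadjusted p below 0.05, and DESeq2 and limma called 0 higher. Trps1, a transcription factor of growth plate chondrocytes in mammals, fell from 9.42 ± 1.24 to 4.37 ± 0.523 CPM (-1.12 ± 0.11, adjusted p = 5.81e-07). Ihhb, which encodes an Indian hedgehog signal, fell from 2.12 ± 0.602 to 0.564 ± 0.102 CPM (-1.92 ± 0.21, adjusted p = 2.71e-06). Runx3, a runt-domain factor of chondrocyte maturation, fell from 8.81 ± 1.74 to 5.85 ± 0.552 CPM (-0.60 ± 0.12, adjusted p = 0.000647). The runx3 call was lost with limma (-0.58) and without WT replicate 1 (-0.52) or 2 (-0.55) or DKO replicate 1 (-0.56) or 5 (-0.58). Gdf5, a growth factor of joint formation, fell from 1.07 ± 0.603 to 0.290 ± 0.0837 CPM (-1.88 ± 0.40, adjusted p = 0.000927), with overlapping ranges.

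Markers of other tissues were also measured, and their counts stand beside 18.0% of all genes called lower and 7.32% called higher in DKO. The shares for bone and skeletal muscle were near that background. For notochord, 3 of 6 genes fell and 1, noto, rose in DKO. Their summed level was 46.5 to 76.2 CPM in WT and 25.2 to 31.2 CPM in DKO. It was 21.2 to 25.4 CPM in GLO1KO and 26.6 to 36.6 CPM in AKR1A1AKO. Most of the notochord sum in WT was col8a1a, at 38.07 ± 7.729 CPM in WT and 8.206 ± 1.44 in DKO (SD). The notochord sum therefore mainly followed this gene. Tbxta was at 9.45 to 13.17 CPM in WT and 8.15 to 11.93 CPM in DKO, with overlapping ranges. For tendon, 4 of 10 fell, with sums of 255 to 337 CPM in WT and 227 to 260 CPM in DKO. For bone, 1 of 7 tested fell, with sums of 756 to 989 CPM in WT and 839 to 916 CPM in DKO. Most of the bone sum was sparc, at 782 ± 70.8 CPM in WT and 799 ± 35.1 in DKO (SD). Bglap was at 0 counts in 22 of the 23 libraries. For skeletal muscle, 3 of 14 fell and 1 rose, and the sum was 24614 to 29408 CPM in WT and 32810 to 35726 CPM in DKO. Their part in the levels of the cartilage genes was not tested.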

How the data were processed

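RNA of whole larvae was sequenced on the DNBSEQ platform from strand-specific mRNA libraries. The authors cleaned the reads (SOAPnuke), placed them on GRCz11 (HISAT2) and deposited expected counts per gene, made with featureCounts 2.0.3. In 94 genes the deposited counts were not whole and were rounded; none of these was among the 11 genes. The annotation, the strand setting and the treatment of reads matching several genes are not given in the sources used here, so copies of 1 gene are uncertain.

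CPM were computed with TMM factors in edgeR 4.0.16 (R 4.3.3). Each pair of genotypes was fitted alone with edgeR's quasi-likelihood test after filterByExpr, with Benjamini-Hochberg adjustment over all genes tested and calls where the adjusted p was under 0.05 and the fold exceeded 1.5. Alternatives were DESeq2 size factors, scaling by library size only, no filter, DESeq2 1.42.0, limma 3.58.1 (limma-trend), no fold change threshold, all libraries in 1 fit, the replicate number as a block, and leaving out each library. The scripts were tested on simulated data. Z-scores were taken on log2 CPM with a prior count of 2, over 23 libraries. No pair of replicates agreed within sampling noise.

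The 11 genes and the lists were chosen with earlier results of these data known. All 11 are named; of each of the 3 other lists, the 4 genes with the smallest p in DKO against WT are named, with the 10 genes most like the mean z-score over all libraries and the 10 most like it with genotype means removed. The second copies of sox9 and col2a1, prg4a, prg4b, col27a1b, col10a1, fam20b and b3gat3 were named after their values were seen. The listed symbols mia, ugdh, fgfr3, emilin3 and mylpf matched no row and were not analysed here, and pthlhb, runx2 and bglap had too few counts to be tested. Symbols came from a gene name table, which named 20170 of 22856 rows and gives several copies the same symbol. Sequences and coordinates are not given.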

Additional observations from a re-analysis of the deposited data

Results flagged for a closer look

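Among the 11 genes and the named cartilage genes, 92 groups of libraries were searched for a library far from the rest of its group. About 4.6 would be found by chance at 1 in 20. The 2 found were fewer than that, so nothing is read from their number. For sox9 ENSDARG00000003293, AKR1A1AKO replicate 1 was at 24.7 CPM, while the other 4 libraries of that genotype were at 19.95 to 20.9 CPM. For col11a1 ENSDARG00000026165, GLO1KO replicate 6 was at 339 CPM, while the others were at 368 to 379 CPM.

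Among the 11 genes and the named cartilage genes, 4 pairs of contrasts were found in which loss of the same enzyme went with lower levels in every library on 1 background and higher levels in every library on the other. For hapln1 ENSDARG00000068516, the log2 fold change was -1.39 in GLO1KO against WT and 0.57 in DKO against AKR1A1AKO. It was -0.86 in AKR1A1AKO against WT and 1.10 in DKO against GLO1KO. For col11a1, it was -0.46 in AKR1A1AKO against WT and 0.21 in DKO against GLO1KO. For epyc these values were -0.44 and 0.24. Of the cartilage genes outside that search, slc26a2 had the same pattern, at -0.65 and 0.49. The differences between these contrasts were not tested. How many of all genes show such a pattern was not counted, so nothing is read from the number of pairs found.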

How the results depend on the processing

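Direction was checked for the 11 genes in each comparison and, in DKO against WT, for the 4 genes named from each other list. None of their called values changed direction under any alternative run. Calls of the remaining cartilage genes were not checked for direction. Without a fold change threshold, the number of the 11 genes called against WT was 8 in DKO (7 lower and 1, matn4, higher). It was 8 in AKR1A1AKO against WT (all lower). It was 3 in DKO against GLO1KO (all higher) and 6 in DKO against AKR1A1AKO (2 lower and 4 higher). In GLO1KO against AKR1A1AKO it was 7 (5 lower and 2 higher). Of the other cartilage genes, 34 of 53 were called in DKO against WT (32 lower and 2 higher). In GLO1KO against WT these were 35 of 52 (32 lower and 3 higher), and in AKR1A1AKO 29 of 53 (28 lower and 1 higher). Between knockouts these were 12 of 52 in DKO against GLO1KO (1 lower and 11 higher). In GLO1KO against AKR1A1AKO these were 17 of 52 (14 lower and 3 higher). Over all genes, 6212 were lower and 5853 higher of 19765 in DKO against WT. The numbers were 6424 and 6036 of 19758 in GLO1KO, and 3925 and 3545 of 19892 in AKR1A1AKO. They were 1420 and 1833 of 19582 in DKO against GLO1KO, and 4125 and 3996 of 19746 in DKO against AKR1A1AKO. In GLO1KO against AKR1A1AKO they were 3764 and 3450 of 19734. With all libraries in 1 edgeR fit, 0 other cartilage genes were called in DKO against GLO1KO, beside 3 in the pairwise fit. Scaling by library size only moved the all-gene median of the log2 fold change to -0.183 in DKO, -0.132 in GLO1KO and -0.069 in AKR1A1AKO against WT, and to -0.11 in DKO against AKR1A1AKO. In DKO against WT it called 4856 genes lower and 681 higher, beside 3560 and 1447 with TMM, and the mean z-score became 1.04 in WT and -0.405 in DKO. The replicate number as a block gave 4 of the 11 genes in DKO against AKR1A1AKO (hapln1 0.60 and matn3 ENSDARG00000069265 0.59 were added). It gave 1 other cartilage gene in DKO against GLO1KO, and the runx3 call in DKO against WT was lost (-0.585). Pairing was looked at over all genes, as the correlation of log2 CPM after the genotype mean of each gene was removed. For same-numbered libraries, this correlation had a median of -0.021 in DKO and WT, beside 0.005 for other numbers. This median was 0.073 beside -0.033 in GLO1KO and WT, and 0.101 beside -0.029 in AKR1A1AKO and WT (highest pair 0.21). The lowest pair was below 0 in each comparison (-0.120, -0.127 and -0.044). Knockout libraries closest to the WT library of their own number were 1 of 6 in DKO, 1 of 6 in GLO1KO and 3 of 5 in AKR1A1AKO. The main fits did not pair the libraries by number, and whether they are paired was not settled. The other 89 counts and scores stayed within their limits.

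Leaving out each library in turn gave 4 to 4 of the 11 genes in DKO, 7 to 7 in GLO1KO and 4 to 5 in AKR1A1AKO against WT, 1 to 1 in DKO against GLO1KO, 2 to 4 in DKO against AKR1A1AKO (4 without DKO replicate 6) and 1 to 2 in GLO1KO against AKR1A1AKO (1 without AKR1A1AKO replicate 1 or GLO1KO replicate 3). For the other cartilage genes it gave 18 to 22, 17 to 22 and 8 to 14 against WT, 1 to 3 in DKO against GLO1KO (1 without DKO replicate 5 or 6 or GLO1KO replicate 2 or 6), 7 to 8 in DKO against AKR1A1AKO and 4 to 8 in GLO1KO against AKR1A1AKO (4 without AKR1A1AKO replicate 1 or 3). Where a call changed, the cause was not tested. Counts per library were low for col10a1 ENSDARG00000101535 (3 to 12 in DKO), gdf5 (7 to 14), acanb (8 to 40) and ihhb (15 to 25), which limits the precision of their fold changes.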

Other observations

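Genes from outside cartilage stood among those most like the mean z-score of the 11 genes once genotype means were removed. The embryonic globin gene hbae3 (r = 0.765) was at 302 CPM in WT, 195 for AKR1A1AKO, 185 for GLO1KO and 196 for DKO. The cardiac myosin binding protein gene mybpc3 (r = 0.75) was at 88.9, 59.9, 55.6 and 51.8 CPM in the same order. Cmn, a gene of the notochord in zebrafish larvae, had r = 0.785 and was at 154.5, 73.4, 42.2 and 50.8 CPM. The remaining genes of that list outside cartilage were plp2b (0.785), crat (0.75) and ENSDARG00000116413 (0.75). These are descriptions over 23 libraries that share genotypes, and no test was run on them.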
